A study of Mus musculus with 20 samples.

Results

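The 10 genes described here encode the alpha, pi, theta and microsomal glutathione transferases of mouse liver: *Gsta1*, *Gsta2*, *Gsta3*, *Gsta4*, *Gstp1*, *Gstp2*, *Gstt1*, *Gstt2*, *Gstt3* and *Mgst1*. They are taken by name and enzyme class, with no threshold on a measured value but with earlier results of these data known, and are 10 of the 46078 genes in the table of counts. All 10 passed the filter on low counts. Glutathione transferases join the thiol of glutathione (GSH) to electrophilic compounds, which are then exported or processed to mercapturates, and several of them also reduce lipid hydroperoxides. The alpha, pi and theta classes are soluble dimers, whereas MGST1 is a membrane protein of the endoplasmic reticulum and outer mitochondrial membrane. Many glutathione transferase genes of rodent liver are induced through the transcription factor NRF2, which binds antioxidant response elements, and through the xenobiotic receptors CAR and PXR.

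GSH is made from cysteine, and *Cse* (*Cth*) encodes cystathionine gamma-lyase, which makes cysteine from cystathionine. mRNA was sequenced from the livers of 20 male mice, aged 9 weeks or more when their diets began. The control genotype was represented by *Cse*+/- mice, of which 2 ate the control diet, 4 a diet without cysteine (no-Cys) and 3 a diet without tryptophan (no-Trp). The *Cse*-/- mice, a whole-body knockout on a mixed 129 and C57BL/6 background, comprised 4 on the no-Cys diet, 3 on the no-Trp diet and 4 that also received L-buthionine sulfoximine (BSO) with the no-Trp diet. That compound blocks gamma-glutamyl cysteine synthase, with which GSH synthesis begins. All mice were calorie restricted throughout, first on the control diet and then on the diet of their group, and livers were taken on the second day after the shift. The sample labels call the control genotype wild type and the study's list of mice calls it heterozygous. No *Cse*-/- liver from the control diet was analysed here, and the control group of 2 mice limits its comparisons.

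Levels are given as CPM, a gene's count scaled to the TMM-adjusted total of its library, and a library is named by its mouse number. Library totals ranged from 11785740 to 57986121 counts. *Cth* lay between 6.37 and 14.4 CPM in the *Cse*-/- livers and between 88.4 and 332 CPM in the *Cse*+/- livers, as labelled. The hepatocyte marker *Alb* was at 25507 CPM or more in every library. In the *Cse*-/- no-Cys group, mouse av08 stood apart over all genes: its chi-square against each of the other 3 livers was 43.3 to 48.9 per gene, and theirs among themselves was 9.60 to 16.3. Libraries of other groups differed by as much (up to 64.2, between av14 and av15). A gene is said to have risen or fallen where the adjusted p of edgeR's quasi-likelihood test, adjusted over all 14759 genes tested, was under 0.05. In whole liver, fewer cells of a type and less RNA per cell cannot be told apart.

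The alpha and pi genes each include a pair of close copies, and each copy is counted below as a separate member unless summed. In GRCm38, *Gsta1* (ENSMUSG00000074183, chromosome 9, 78230656 to 78242684, plus strand) and *Gsta2* (ENSMUSG00000057933, chromosome 9, 78331018 to 78355788, minus strand) share 97.6% of their coding bases. *Gstp1* (ENSMUSG00000060803, chromosome 19, 4035407 to 4037985) and *Gstp2* (ENSMUSG00000038155, chromosome 19, 4040285 to 4046023), both on the minus strand, share 98.1%. By contrast, *Gsta3* on chromosome 1 shares 74.1% of aligned coding bases with *Gsta1*, and *Gsta4* on chromosome 9 shares 66.3%. The theta genes lie together on chromosome 10, where *Gstt1* shares 75.4% with *Gstt3* and 60.5% with *Gstt2*. *Mgst1* lies on chromosome 6.

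The promoter windows of both pairs are shown because both members of each pair had their highest level in the same library, mouse av07 for the alpha pair and mouse av09 for the pi pair. Each runs from 250 bases before to 50 after a RefSeq start (GRCm38.p6), read 5′ to 3′ on the gene's strand. The capitals in the alpha windows mark the longest run that both share (29 bases), and those in the pi windows mark a match to the NRF2-type motif TGANTCAGC.
Gsta1: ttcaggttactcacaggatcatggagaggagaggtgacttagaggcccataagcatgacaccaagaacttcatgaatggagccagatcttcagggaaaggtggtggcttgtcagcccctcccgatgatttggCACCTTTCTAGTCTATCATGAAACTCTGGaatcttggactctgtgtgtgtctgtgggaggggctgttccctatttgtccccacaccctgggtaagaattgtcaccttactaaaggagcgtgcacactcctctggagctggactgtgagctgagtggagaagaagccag
Gsta2: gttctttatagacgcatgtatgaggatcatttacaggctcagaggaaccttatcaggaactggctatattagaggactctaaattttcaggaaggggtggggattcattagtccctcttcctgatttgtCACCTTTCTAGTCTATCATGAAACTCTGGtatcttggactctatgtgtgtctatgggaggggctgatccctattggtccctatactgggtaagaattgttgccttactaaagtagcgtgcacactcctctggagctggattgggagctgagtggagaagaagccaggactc
Gstp1: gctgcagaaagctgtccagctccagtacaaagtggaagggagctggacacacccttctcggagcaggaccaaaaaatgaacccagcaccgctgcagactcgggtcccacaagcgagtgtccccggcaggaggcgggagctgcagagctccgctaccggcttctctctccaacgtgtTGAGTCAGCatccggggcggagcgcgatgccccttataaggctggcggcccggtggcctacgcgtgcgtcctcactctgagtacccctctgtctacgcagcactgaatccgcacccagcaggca
Gstp2: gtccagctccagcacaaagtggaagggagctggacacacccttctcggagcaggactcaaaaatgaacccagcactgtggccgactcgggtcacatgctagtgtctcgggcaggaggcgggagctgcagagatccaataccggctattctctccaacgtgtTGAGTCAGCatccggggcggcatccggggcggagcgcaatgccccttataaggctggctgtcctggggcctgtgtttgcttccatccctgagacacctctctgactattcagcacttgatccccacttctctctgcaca

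These windows are chr9:78230419-78230718 on the plus strand (*Gsta1*), chr9:78347096-78347395 on the minus strand (*Gsta2*), chr19:4037863-4038162 on the minus strand (*Gstp1*) and chr19:4042172-4042471 on the minus strand (*Gstp2*). The alpha pair is identical at 77.1% of aligned positions and the pi pair at 80.1%, against 45.6% to 51.6% for every other pair among the first-listed windows of the 8 members that have one. No window was given for *Gsta4* and *Gstt2*. TGANTCAGC was searched on both strands and matched in *Gstp1*, at −74 from the start, and in *Gstp2*, at −89, and in 1.19% of all 32851 windows. TGACNNNGC, a looser form of the antioxidant response element that can overlap TGANTCAGC, matched in *Gsta3* and in the upstream window of *Mgst1* and in 12.4% of all windows. Neither motif matched in the *Gsta1* and *Gsta2* windows, which says only that these letters are not in these 300 bases. The letters TATAA, also searched on both strands, matched in *Gsta2*, *Gstp1* and *Gstp2* and in no window of the other members, and in 24.9% of all windows.

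Per kilobase of the transcript with the longest coding sequence, the members spanned a wide range of levels. The median over the 20 libraries was 2860 CPM per kb for *Mgst1*, 1026 for *Gsta3*, 811 for *Gstp1* and 235 for *Gstt1*. Then came *Gstt2* (61.9 CPM per kb), *Gsta4* (51.1), *Gstt3* (24.3) and *Gsta2* (20.01), and last *Gstp2* (2.25) and *Gsta1* (1.24). With lengths of all annotated exons together, *Gstp1* came before *Gsta3*, *Gsta4* before *Gstt2* and *Gsta2* before *Gstt3*. The most abundant member varied least, 1.73-fold between the highest and lowest library (*Mgst1*), and the least abundant varied most, 53.6-fold (*Gsta1*). The raw counts of *Gsta1* were 4 to 176 per library and those of *Gstp2* 8 to 330.

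**Figure D1:**
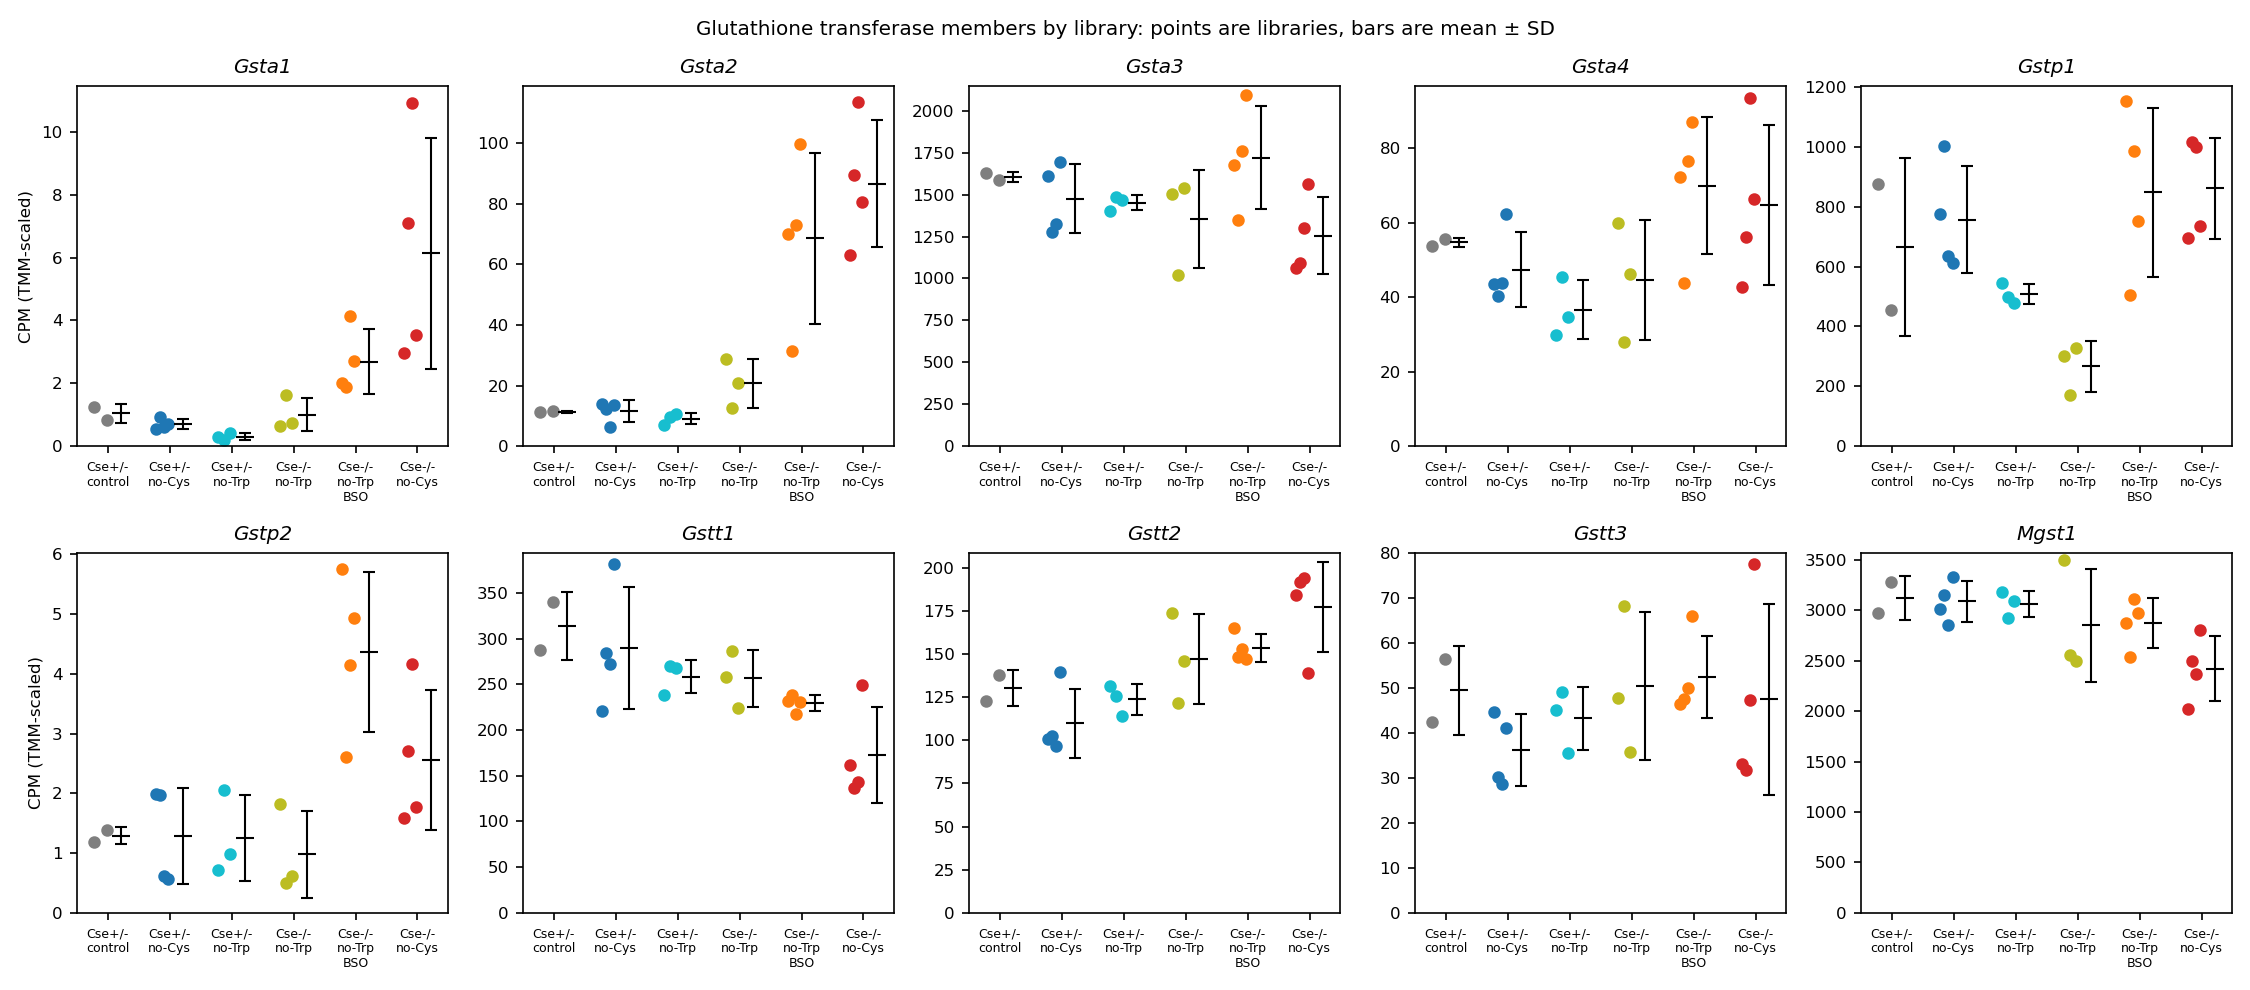
Level of each member in CPM (TMM-scaled, linear axis from 0) in the 6 groups; points are libraries, and the horizontal mark with its bar is the mean and SD. *Gsta1* and *Gsta2* were highest in Cse-/- livers on the no-Cys diet or the no-Trp diet with BSO, while *Gstt1* and *Mgst1* had their lowest mean in Cse-/- livers on the no-Cys diet.

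The comparison of genotypes on the no-Cys diet sets *Cse*-/- against *Cse*+/- livers where the diet holds no cysteine. Without *Cse*-/- livers on the control diet, an effect of genotype alone cannot be told apart from that of cysteine deprivation. Of the 10 members, *Gsta1*, *Gsta2* and *Gstt2* rose and *Gstt1* and *Mgst1* fell in *Cse*-/- livers. These are 5 of 10 members, where 23.8% of all genes tested were called. The median log2 fold change of the members was 0.42, and that of all genes −0.01. The groups did not overlap for 3 members, against 23.2% of all genes.

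GSTA1 and GSTA2 are alpha enzymes that conjugate electrophiles, reduce organic hydroperoxides and bind bilirubin and other ligands. *Gsta2* was at 13.97, 12.4, 6.30 and 13.7 CPM in the 4 *Cse*+/- livers and at 62.9, 89.5, 113 and 80.6 CPM in the 4 *Cse*-/- livers. Every *Cse*-/- liver lay above every *Cse*+/- liver. The log2 fold change was 2.90 ± 0.32 (SE), or 7.47-fold (edgeR adjusted p = 4.49e-06). *Gsta1* was at 0.541, 0.917, 0.622 and 0.708 CPM in *Cse*+/- livers and at 2.95, 7.11, 10.9 and 3.54 CPM in *Cse*-/- livers, again without overlap. Its log2 fold change was 3.11 ± 0.44 (SE; edgeR adjusted p = 6.02e-05). The 2 *Cse*-/- livers with the most *Gsta1* also had the most *Gsta2*.

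The other alpha genes did not pass the test. GSTA3 is known in the mouse for conjugating the epoxide of aflatoxin, and *Gsta3* averaged 1476 ± 208 CPM in the 4 *Cse*+/- and 1255 ± 231 CPM in the 4 *Cse*-/- livers (mean ± SD) (log2 fold change −0.23, edgeR adjusted p = 0.283). GSTA4 prefers 4-hydroxynonenal, a product of lipid peroxidation. *Gsta4* ranged from 40.2 to 62.3 CPM in *Cse*+/- and from 42.8 to 93.4 CPM in *Cse*-/- livers (log2 fold change 0.45, 95% interval −0.07 to 0.96, edgeR adjusted p = 0.197).

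The theta genes, whose enzymes act on small halogenated compounds and, for GSTT2, on sulfate esters, moved in different directions. *Gstt2* rose, from 101, 102, 96.7 and 139.8 CPM to 184, 192, 194 and 139 CPM. The ranges met only through 1 liver of each group, mouse av04 of *Cse*+/- at 139.8 CPM and mouse av08 of *Cse*-/- at 139 CPM. The log2 fold change was 0.69 ± 0.13 (SE; edgeR adjusted p = 8.12e-04). *Gstt1* fell, from 221, 284, 273 and 381 CPM to 162, 137, 143 and 249.7 CPM (log2 fold change −0.75 ± 0.17 SE, edgeR adjusted p = 0.00319). Mouse av08 was again nearest to the other genotype and lay above the lowest *Cse*+/- liver, so the groups overlapped. The ratio of *Gstt2* to *Gstt1* CPM was 0.355 to 0.455 in *Cse*+/- and 0.557 to 1.40 in *Cse*-/- livers. *Gstt3* overlapped widely (28.7 to 44.7 and 31.7 to 77.5 CPM; edgeR adjusted p = 0.272), and without mouse av08 its log2 fold change of 0.39 was 0.05. Without that liver *Gstt1* was at −0.98 on the log2 scale, and 5 members were called as with it (23.7% of all genes called).

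*Mgst1*, whose product conjugates and reduces lipid hydroperoxides in membranes, was at 3017, 3151, 2857 and 3331 CPM in *Cse*+/- livers and at 2019, 2502, 2367 and 2802 CPM in *Cse*-/- livers. The groups did not overlap, and the log2 fold change was −0.35 ± 0.12 (SE; edgeR adjusted p = 0.0348). This call was lost when any of 5 of the 8 libraries was left out (av02, av04, av05, av06 or av07), with an adjusted p of up to 0.137, and also in a fit of these groups alone (adjusted p = 0.0678) and without the filter on low counts (0.0553). GSTP1 is a broadly acting conjugating enzyme that also binds the kinase JNK. *Gstp1* ranged from 612 to 1001 CPM in *Cse*+/- and from 695 to 1016 CPM in *Cse*-/- livers (log2 fold change 0.19, 95% interval −0.34 to 0.71). *Gstp2* ranged from 0.566 to 1.98 and from 1.59 to 4.16 CPM (log2 fold change 1.01, edgeR adjusted p = 0.132).

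Markers of cell types moved with this comparison. All 5 red cell genes were lower in *Cse*-/- livers (summed 69.1 to 114 CPM against 201 to 406 CPM), and 4 of 7 hepatocyte genes were lower and 2 higher (summed 42252 to 69052 CPM against 85684 to 110771 CPM). Of the 5 cholangiocyte genes tested 2 were lower (summed 16.4 to 28.8 CPM against 46.1 to 57.9 CPM), and of the 7 macrophage genes none was called. Their part in the values above was not tested.

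**Figure D2:**
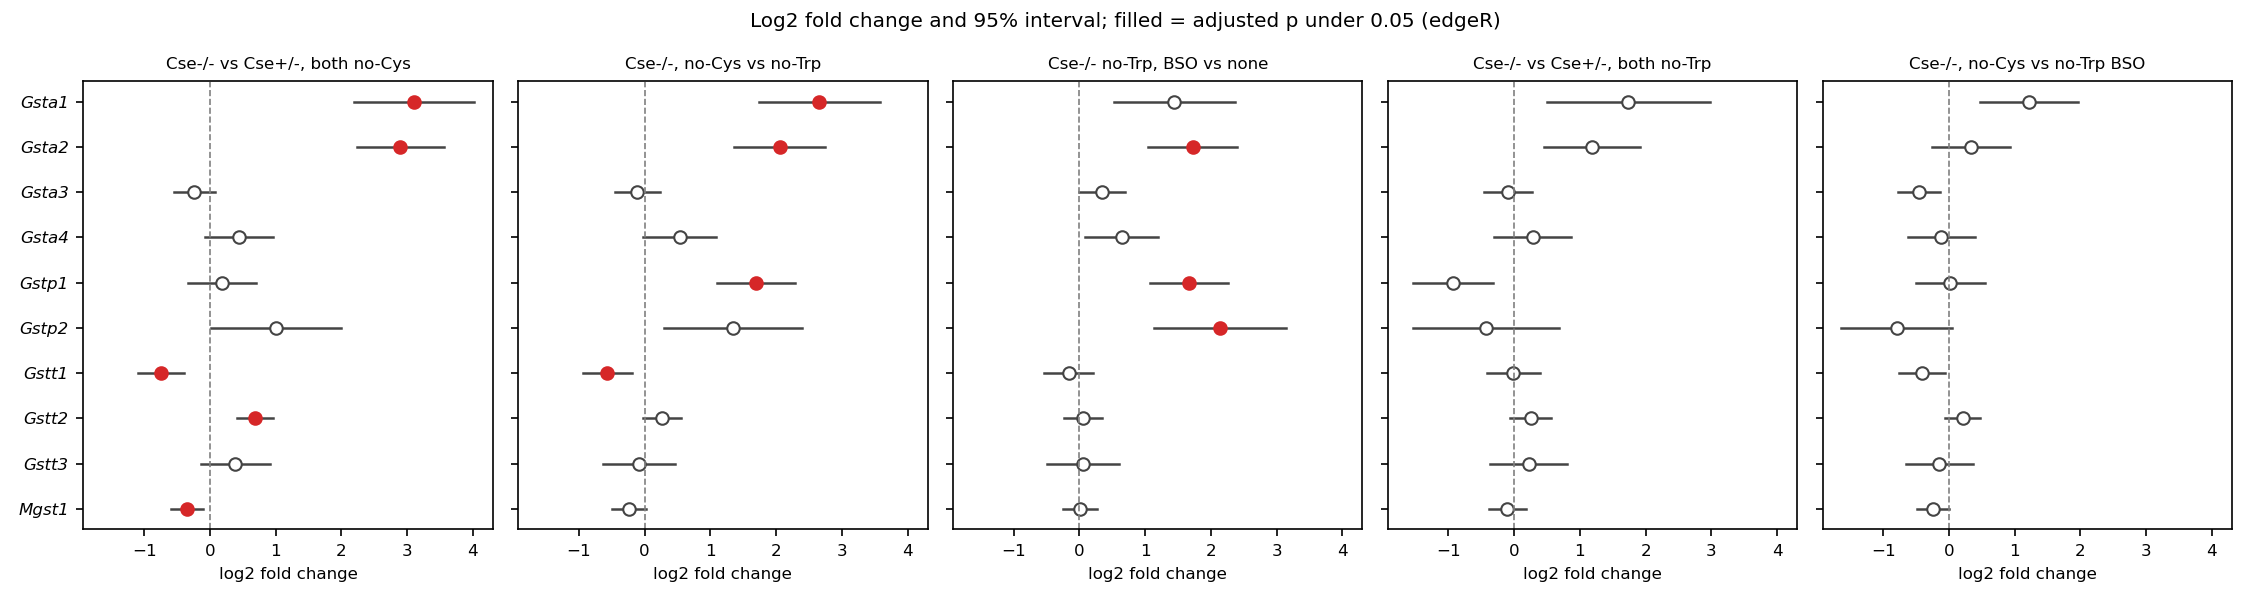
Log2 fold change (x axis) of each member (y axis) in 5 comparisons, with the 95% interval as a line; filled points have an edgeR adjusted p under 0.05. *Gsta1* and *Gsta2* lie to the right of 0 in all 5 panels, and *Gstp1* lies left of 0 only in the comparison of genotypes on the no-Trp diet.

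The addition of BSO to the no-Trp diet addresses depletion of GSH without removal of cysteine. In *Cse*-/- mice, *Gsta2*, *Gstp1* and *Gstp2* rose with BSO and no member fell. These are 3 of 10 members, where 0.793% of all genes tested were called. The groups did not overlap for 4 members (12.6% of all genes), these 3 and *Gsta1*. *Gstp1* and *Gstp2* are close copies whose reads cannot be wholly assigned, and summed they rose (edgeR adjusted p = 0.00561). The median log2 fold change of the members was 0.50, and that of all genes −0.00.

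*Gstp1* was at 301, 170.0 and 328 CPM without BSO and at 1154, 505, 985 and 751 CPM with it. Its log2 fold change was 1.67 ± 0.28 (SE), or 3.19-fold (edgeR adjusted p = 0.00570). The lowest liver with BSO, that of mouse av10, still lay above the highest without it, and the call held with each library left out (highest adjusted p = 0.0423). *Gsta2* was at 28.7, 12.6 and 20.8 CPM without BSO and at 69.8, 31.3, 73.1 and 99.8 CPM with it (log2 fold change 1.72 ± 0.33 SE, edgeR adjusted p = 0.0137). Mouse av10 was also the lowest of its group for *Gsta2*. The call was lost without mouse av09, av15 or av16, with an adjusted p of up to 0.0856, and in a fit of these groups alone (adjusted p = 0.0561).

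*Gstp2* was at 1.81, 0.499 and 0.622 CPM without BSO and at 5.76, 2.61, 4.14 and 4.93 CPM with it. This is a log2 fold change of 2.14 ± 0.48 (SE; edgeR adjusted p = 0.0388) at raw counts of 8 to 42 and 39 to 330, and it was lost when the libraries were thinned to equal depth (adjusted p = 0.114) or without any of 5 libraries (av09, av11, av12, av15 or av16). *Gsta1* was at 0.647, 1.62 and 0.746 CPM and at 2.01, 1.88, 4.14 and 2.72 CPM (log2 fold change 1.44 ± 0.44 SE). It was not called by edgeR (adjusted p = 0.131) and was called by DESeq2 (adjusted p = 0.0488), which called 2.80% of all genes, and by edgeR without the filter on low counts (0.0318, with 287 of 27464 genes called). The theta genes and *Mgst1* had log2 fold changes of −0.16 to 0.06 and adjusted p of 0.773 or more. For *Mgst1* the 95% interval was −0.25 to 0.27. None of the cell type markers was called in this comparison. In 1 liver of the no-Trp group without BSO the summed kidney genes reached 6.73 CPM and in 1 the summed adipose genes reached 13.1 CPM, and their part in these values was not tested.

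The comparisons that follow reuse libraries of those above, and their values are given side by side. Among *Cse*-/- mice, the no-Cys diet was compared with the no-Trp diet, which lacks another essential amino acid. *Gsta1*, *Gsta2* and *Gstp1* were higher on the no-Cys diet and *Gstt1* was lower, 4 of 10 members where 10.4% of all genes were called (5.05% higher, 5.35% lower). The log2 fold changes were 2.66 ± 0.44 (SE, edgeR adjusted p = 9.54e-04) for *Gsta1*, 2.06 ± 0.33 (7.71e-04) for *Gsta2* and 1.69 ± 0.28 (0.00114) for *Gstp1*. For *Gstp1* this sets 695, 1016, 998 and 735 CPM against 301, 170.0 and 328 CPM. *Gstt1* fell by 0.57 on the log2 scale (edgeR adjusted p = 0.0472), and that call was lost without any one of 6 of the 7 libraries (all but av08), with an adjusted p of up to 0.131. The *Gstt1* call was also lost in a fit of these groups alone (adjusted p = 0.128). *Gstp2* was not called by edgeR (log2 fold change 1.35, adjusted p = 0.0895), and was called by DESeq2 (adjusted p = 0.0411, 14.4% of all genes called), without the filter on low counts (0.0369) and without mouse av14, where its log2 fold change was 2.16 (5.25% and 4.65% of all genes called). Red cell genes summed to 69.1 to 114 CPM on the no-Cys and 119 to 184 CPM on the no-Trp diet (3 of 5 called lower), cholangiocyte genes to 16.4 to 28.8 and 27.6 to 46.2 CPM (1 of 5 lower), and 3 of 7 hepatocyte genes were lower and 1 higher. The pericentral hepatocyte genes summed to 13656 to 15445 CPM on the no-Cys and 16639 to 17898 CPM on the no-Trp diet, without overlap (1 of 7 higher and 1 lower), and the endothelial genes to 133.9 to 147.7 and 154.1 to 156.2 CPM, also without overlap (0 of 5 called). Their part in these values was not tested.

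The no-Cys diet and the no-Trp diet with BSO were compared directly in *Cse*-/- mice. No member was called by edgeR, where 2.75% of all genes were (1.33% higher, 1.42% lower), and no member separated the groups (12.7% of all genes). At an unadjusted p under 0.05, 4 members passed, as did 2958 of all 14759 genes. By DESeq2 1 member was called, *Gsta1* (adjusted p = 0.0335), where 6.44% of all genes were. For *Gsta2* the log2 difference was 0.33 (95% interval −0.26 to 0.93) and for *Gstp1* 0.02 (95% interval −0.50 to 0.54). *Gsta1* averaged 6.13 ± 3.68 CPM in the 4 no-Cys livers and 2.69 ± 1.04 CPM in the 4 BSO livers (mean ± SD) (log2 difference 1.22, edgeR adjusted p = 0.0653). Without mouse av08, which stood apart over all genes, *Gsta1*, *Gsta3* and *Gstt1* were called, and the share of all genes called was then 6.97%. Cholangiocyte genes summed to 16.4 to 28.8 CPM on the no-Cys diet and 36.4 to 48.9 CPM with BSO (2 of 5 lower), pericentral hepatocyte genes to 13656 to 15445 and 16285 to 17726 CPM (2 of 7 lower), and 3 of 7 hepatocyte genes were lower. Their part in these values was not tested.

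Between genotypes on the no-Trp diet, edgeR called no member (2.64% of all genes), with 3 members at an unadjusted p under 0.05, as were 2713 of all 14759 genes. DESeq2, which called 4.92% of all genes, called 2 members, *Gsta1* (log2 fold change 1.75, adjusted p = 0.0393) and *Gstp1* (−0.93, adjusted p = 0.0272). *Gstp1* was at 545, 499 and 479 CPM in *Cse*+/- and at 301, 170.0 and 328 CPM in *Cse*-/- livers, and *Gsta2* at 6.96, 9.79 and 10.5 CPM and at 28.7, 12.6 and 20.8 CPM. Those 2 genes and *Gsta1* did not overlap between genotypes (19.6% of all genes). The edgeR adjusted p were 0.0891 for *Gstp1* (log2 fold change −0.93) and 0.0754 for *Gsta2* (1.18), and without the filter on low counts edgeR called both, at 0.0118 and 0.00485 (2.08% of all genes called). Hepatocyte genes summed to 64351 to 71538 CPM in *Cse*-/- and 74625 to 85430 CPM in *Cse*+/- livers and cholangiocyte genes to 27.6 to 46.2 and 48.3 to 62.4 CPM and red cell genes to 119 to 184 and 211 to 258 CPM, with none of these genes called, and their part was not tested.

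Whether the genotype difference differs between the diets was tested with an interaction term. *Gsta2* was called, with a difference between genotypes that was larger on the no-Cys than on the no-Trp diet by 1.72 ± 0.46 (SE) on the log2 scale (edgeR adjusted p = 0.0412), 1 of 10 members where 4.36% of all genes were called. That call was lost without any of 8 of the 14 libraries (av02, av03, av06, av07, av15, av16, av19 or av20), with an adjusted p of up to 0.0863. The call was also lost when the libraries were thinned to equal depth (adjusted p = 0.0549). *Gstp1* was not called by edgeR (1.12, adjusted p = 0.103) and was called by DESeq2 (adjusted p = 0.0374), which called 8.06% of all genes.

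*Cse*-/- livers on the no-Trp diet with BSO were also set against *Cse*+/- livers on the no-Trp diet, where genotype and BSO both differ. *Gsta1* (log2 fold change 3.18 ± 0.52 SE, edgeR adjusted p = 8.61e-04), *Gsta2* (2.91 ± 0.35, 5.08e-05), *Gsta4* (0.93 ± 0.27, 0.0297) and *Gstp2* (1.71 ± 0.45, 0.0193) were higher, 4 of 10 members where 11.9% of all genes were called (6.53% higher, 5.40% lower). *Gsta1*, *Gsta2*, *Gstp2* and *Gstt2* did not overlap (25.3% of all genes). *Gstt2* was not called (log2 fold change 0.31, edgeR adjusted p = 0.153) but was in a fit of these groups alone (0.0429, 12.4% of all genes called). *Gsta4* was lost without any of 5 libraries (av09, av11, av12, av17 or av20) and *Gstp2* without any of 3 (av09, av17 or av20), with adjusted p of up to 0.102 and 0.0855. *Gstp2* was also lost on thinning (adjusted p = 0.0604), and *Gstp1* and *Gstp2* summed were not called (log2 fold change 0.75, edgeR adjusted p = 0.0809). *Gstp1* was not called by edgeR (log2 fold change 0.74, adjusted p = 0.0823) and was called by DESeq2 (0.0401, 14.3% of all genes called) and without the filter on low counts (0.0195, 6.07% of all genes called). Red cell genes summed to 68.3 to 166 CPM with BSO and 211 to 258 CPM in the *Cse*+/- livers (2 of 5 lower), and 1 endothelial, 1 stellate and 1 adipose gene were lower. Their part was not tested.

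In *Cse*+/- mice edgeR called no member for either diet, which with these group sizes does not show that the levels were equal. On the no-Cys against the control diet 0 of 10 members were called by edgeR and by DESeq2 (2.18% of all genes by edgeR and 4.68% by DESeq2). None was at an unadjusted p under 0.05 (2456 of all 14759 genes), and none was without overlap (25.6% of all genes). On the no-Trp against the control diet 0 of 10 were called by edgeR and by DESeq2. The shares of all genes were 0.0474% by edgeR (0.00678% higher and 0.0407% lower) and 0.441% by DESeq2. At an unadjusted p under 0.05 were 1 member, *Gsta1* (log2 fold change −1.86, from 1.04 to 0.303 CPM, edgeR adjusted p = 0.376), and 1371 of all genes. In that comparison 5 members, *Gsta1*, *Gsta2*, *Gsta3*, *Gsta4* and *Gstt1*, were lower in each no-Trp than in each control liver (27.4% of all genes did not overlap), and the control group holds 2 libraries. In 1 of these the summed kidney genes reached 21.7 CPM, and in 1 no-Trp liver the summed adipose genes reached 30.0 CPM. Hepatocyte genes summed to 111331 to 112724 CPM on the control diet, 85684 to 110771 CPM on the no-Cys diet and 74625 to 85430 CPM on the no-Trp diet, and periportal hepatocyte genes to 11923 to 12322, 7909 to 11180 and 7243 to 9606 CPM, so that neither diet's range met that of the controls. Pericentral hepatocyte genes on the no-Cys diet summed to 13377 to 15309 CPM, under the 16218 to 17454 CPM of the controls, and macrophage genes on the no-Trp diet to 191.6 to 229.5 CPM, above the 158.7 to 171.5 CPM of the controls. The part of these markers was not tested. *Gsta2*, for one, was at 11.1 and 11.5 CPM on the control diet, 6.30 to 13.97 CPM on the no-Cys diet and 6.96 to 10.5 CPM on the no-Trp diet.

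Reads of the close copies cannot be wholly assigned, and the files do not show how ambiguous reads were split. Of the 61-base words of the *Gsta1* transcripts, 87.9% occur in other genes, of the *Gsta2* words 43.5%, of *Gstp1* 31.7% and of *Gstp2* 52.3%, against 11.9% in *Gstt3* (all in Gm20441, which has 0 counts), 0.117% in *Gstt2* and 0 in *Gsta3*, *Gsta4*, *Gstt1* and *Mgst1*. Gm3776, with which *Gsta1* shares 72.9% of its words, was not analysed here. Summed, *Gsta1* and *Gsta2* rose by 2.91 on the log2 scale in *Cse*-/- against *Cse*+/- livers on the no-Cys diet (edgeR adjusted p = 3.05e-06) and by 1.71 with BSO (adjusted p = 0.0125). *Gstp1* and *Gstp2* summed rose by 1.67 with BSO (adjusted p = 0.00561). The pseudogene *Gstp-ps* was at 16.2% to 21.5% of the *Gstp1* CPM in every library, and *Gstp2* at 0.0925% to 0.657%. *Gsta1* was at 2.08% to 12.9% of the *Gsta2* CPM.

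**Figure D3:**
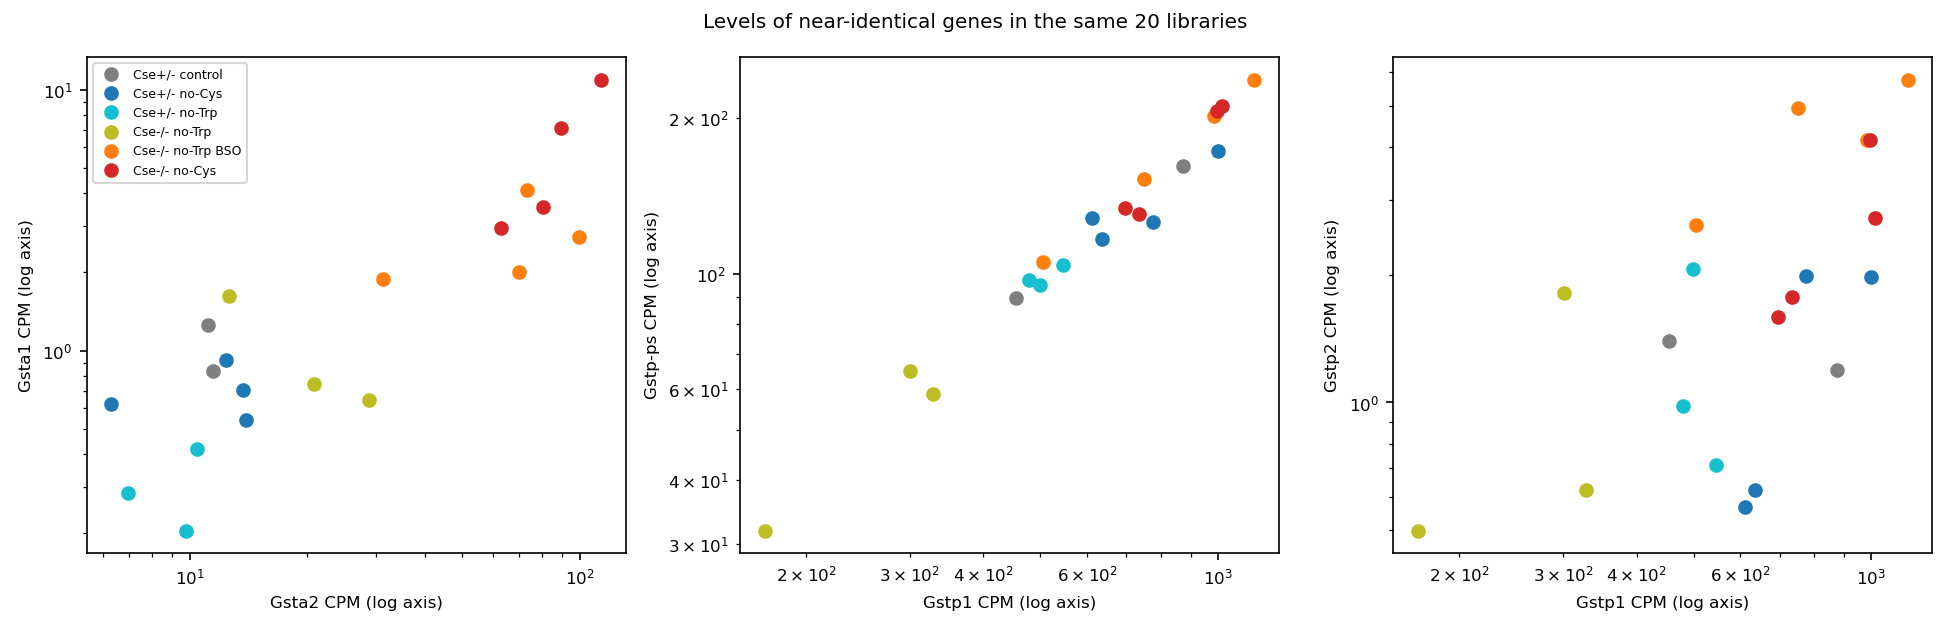
CPM of *Gsta1* against *Gsta2*, *Gstp-ps* against *Gstp1* and *Gstp2* against *Gstp1* in the 20 libraries (log axes, 1 point per library, colours as groups). *Gstp-ps* lies between 16.2% and 21.5% of *Gstp1* throughout, while *Gstp2* ranges from 0.0925% to 0.657% of it.

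Over the 20 libraries the log2 CPM of *Gsta2* was most like that of *Cyp2a5* (Pearson r = 0.97), *Aox1* (0.96) and *Pgrmc1* (0.95). *Gsta1* was most like *Abcc4* (0.92), *Lars* (0.91) and *Gbe1* (0.90), *Gstp1* like *Gstp-ps* (0.99), *Hps1* (0.80) and *Dnm2* (0.78), and *Gstt1* like *Apoc3* (0.92), *Afm* (0.92) and *Ces1d* (0.90). *Gstt2* was most like *Csnk2b* (0.92) and *Mgst1* like *Frg1* (0.88), and the nearest genes to *Gsta3*, *Gsta4*, *Gstp2* and *Gstt3* were *Smarcd2* (0.81), *Ppp1r3c* (0.82), *Dcaf12* (0.81) and *Serpina3m* (0.78). The libraries share groups, so these values describe the pattern over groups and mice and carry no p. Within the members, *Gsta1* and *Gsta2* were at r = 0.87, *Gsta2* and *Gstt2* at 0.78, *Gstp1* and *Gstp2* at 0.63, and *Gsta2* and *Gstt1* at −0.68.

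The members were set beside 7 lists of related genes. Among the other glutathione transferases, 5 of 14 tested were higher and 0 lower in *Cse*-/- than *Cse*+/- livers on the no-Cys diet, which were the mu genes *Gstm1*, *Gstm2*, *Gstm3* (log2 fold change 2.46) and *Gstm4* and the pi gene *Gstp3* (0.79). With BSO 4 of 14 were higher, again *Gstm1*, *Gstm2*, *Gstm3* and *Gstm4*, led by *Gstm3* (2.23, edgeR adjusted p = 0.00662). Of 19 NRF2-regulated genes tested, 13 were higher and 1 lower by genotype on the no-Cys diet, and 9 were higher with BSO. The most raised by genotype were *Cbr3*, a carbonyl reductase (2.92), *Abcc4*, an exporter (2.75), and *Nqo1*, a quinone reductase (2.29), and the 1 lower was *Taldo1* (−0.25). With BSO they were *Cbr3* (1.92), *Nqo1* (1.87) and *Srxn1*, which repairs peroxiredoxins (1.64).

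Of the 8 genes of GSH supply tested, 4 were higher and 1 lower by genotype on the no-Cys diet (*Chac1*, which degrades GSH, at 1.68 and *Gsr*, which reduces oxidised GSH, at 1.00), and 2 were higher with BSO (*Gclc*, the catalytic subunit of the enzyme that BSO inhibits, at 0.88, and *Gsr* at 0.90). Of 13 genes of conjugate export and the mercapturate pathway, 2 were higher and 3 lower by genotype, with *Abcc3*, an exporter of conjugates, at 1.41 and *Nat8f1* at −1.37. Of 8 CAR, PXR and AhR targets 3 were higher and 1 lower (*Cyp2a5* at 2.25, *Cyp2c55* at −1.40), and with BSO 1 was higher, *Cyp2a5* (1.44). Of 16 regulators 4 were higher and 2 lower by genotype, among them *Nfe2l2*, which encodes NRF2, at −0.41, and 0 were called with BSO. Of 8 peroxide-handling enzymes 1 was higher (*Gpx4*, 0.53) and 1 lower (*Gpx1*, −0.46) by genotype, and 0 were called with BSO. The lists were chosen with earlier results of these data known, and their counts are to be read against the 11.6% of all genes called higher and 12.2% called lower by genotype, and 0.488% and 0.305% with BSO.

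**Figure D4:**
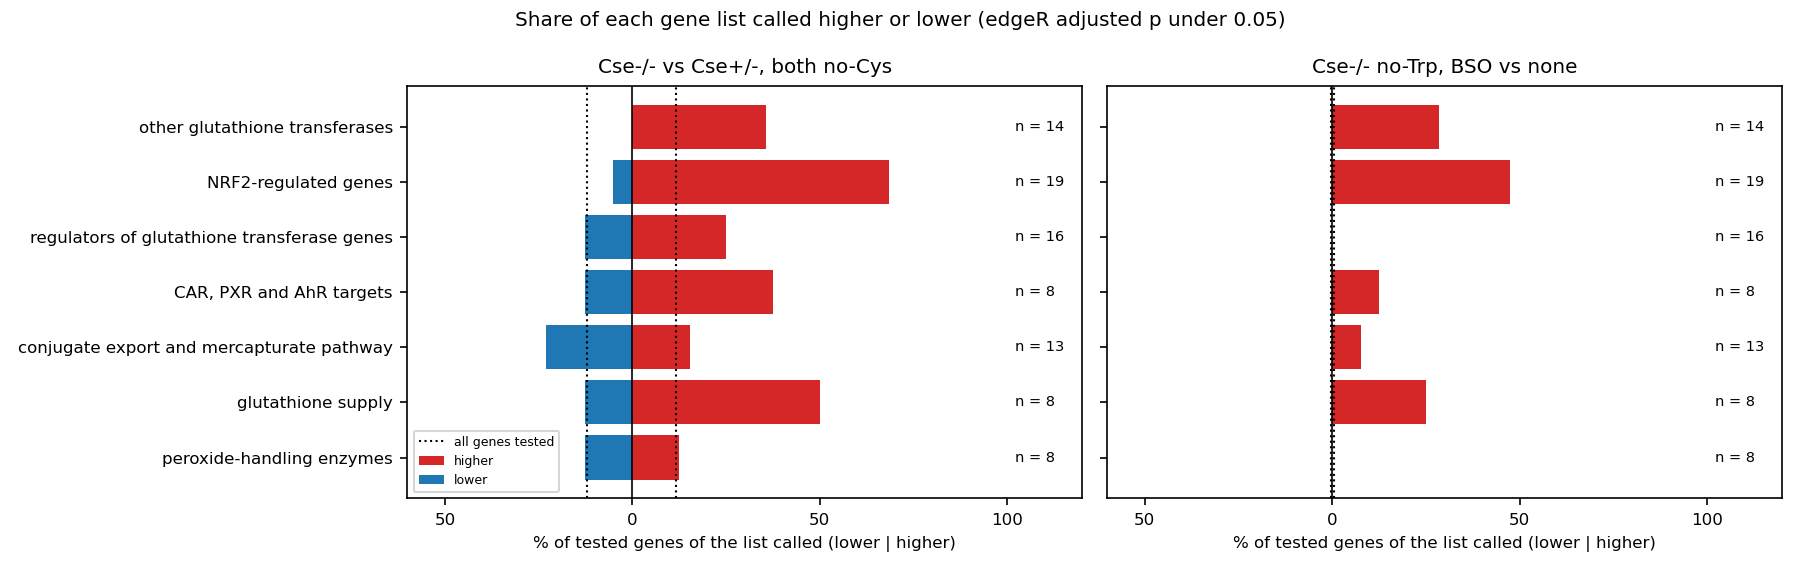
Percent of the tested genes of each list that were called higher (right) or lower (left) by edgeR, in Cse-/- against Cse+/- livers on the no-Cys diet and with BSO in Cse-/- livers on the no-Trp diet; dotted lines are the percent of all genes. NRF2-regulated genes had the largest share called higher of the 7 lists in both comparisons, 13 of 19 and 9 of 19.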

How the data were processed

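Whole-liver polyA RNA was sequenced from 20 mice in 6 groups. The authors aligned reads to GRCm38 with HISAT2 2.1.0 and deposited whole-number counts per gene from HTSeq 0.11.0, without normalization. The annotation release and strand setting are not given in the sources used here. Columns are named by mouse number, and their groups follow the study's list of mice, since the sample titles do not name the mice. Of 21 columns, 1 was not used because that list gives it no condition. The members and gene lists were chosen with earlier results of these data known. All members are named, and of each list at most the 3 highest and 3 lowest called genes.

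Genes were filtered with filterByExpr (minimum count 10, minimum total 15), scaled by TMM and fitted with edgeR 4.0.16 (R 4.3.3) in 1 quasi-likelihood model of 6 group means. P values were two-sided and adjusted over 14759 genes (Benjamini-Hochberg, 0.05). SE is the absolute log2 fold change over the square root of F. On simulated data for the genotype comparison on the no-Cys diet (14429 genes), edgeR recovered 76 of 100 genes changed 1 log2 unit and 93 of 100 changed 2. Replicate libraries differed by more than counting noise (chi-square per gene 9.60 to 64.2). Symbols and coordinates are from GENCODE M21 (45229 of 46078 genes matched). Alternatives were DESeq2 1.42.0, RLE and upper-quartile scaling, other filters, fits of the compared groups alone, an adjusted p under 0.01, thinning, summing near-identical genes and leaving out each library. The sum that includes *Gstp-ps* was chosen after seeing the data. Figures used Python 3.11.15 and matplotlib 3.10.9.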

Additional observations from a re-analysis of the deposited data

Results flagged for a closer look

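In *Cse*+/- livers on the no-Cys diet, mouse av04 stood apart from the other 3 for *Gsta4* (62.3 CPM) and for *Gstt2* (139.8 CPM). Of 30 sets of 4 libraries examined, 2 were set apart in this way, and chance sets apart about 1 in 20. The genotype difference of *Gsta2* was larger on the no-Cys than on the no-Trp diet by 1.72 on the log2 scale (edgeR interaction term, adjusted p = 0.0412, 4.36% of all genes called). On both diets every *Cse*-/- liver lay above every *Cse*+/- liver (23.2% and 19.6% of all genes did not overlap). The call was lost without any of 8 of the 14 libraries (adjusted p up to 0.0863) and on thinning (adjusted p = 0.0549).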

How the results depend on the processing

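For single members, settings other than leaving out a library kept the direction and call of 689 values, made 15 calls and lost 14, and turned 2 signs (*Gstp2* in no-Trp against control *Cse*+/- livers, −0.15 when thinned, and *Mgst1* with BSO, −0.013 with upper-quartile scaling). With a library left out, 591 values kept both, 6 calls were made, 35 were lost and 48 signs turned, none of them of a called value. At an adjusted p under 0.01 the members called were 0 for the interaction, 2 for BSO against *Cse*+/- no-Trp livers and 1 for BSO against *Cse*-/- no-Trp livers (1.08%, 4.22% and 0.190% of all genes). Without a filter they were 2 for the interaction, 1 for no-Cys against BSO and 2 between genotypes on the no-Trp diet (2.95%, 2.12% and 2.08% of all genes), and DESeq2 gave 2, 1 and 2 for the same comparisons (8.06%, 6.44% and 4.92%). DESeq2 also gave 5 in place of 4 for no-Cys against no-Trp, 4 in place of 3 with BSO and 5 in place of 4 for BSO against *Cse*+/- no-Trp livers (14.4%, 2.80% and 14.3% of all genes). Without a filter these 3 counts were also 5, 4 and 5, and that between genotypes on the no-Cys diet was 4 in place of 5 (of 27464 genes tested, 1443, 287, 1668 and 3049 were called). Thinning gave 0 for the interaction (4.22% of all genes). Summing the close copies, with or without *Gstp-ps*, gave 2 and 2 features for BSO against *Cse*+/- no-Trp livers (11.9% of all genes in both). Each sum counts as 1 feature, and the summed pi genes were not called (edgeR adjusted p = 0.0750 with *Gstp-ps* and 0.0809 without it).

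With each library left out in turn, the members called ranged from 4 to 5 between genotypes on the no-Cys diet, 1 to 3 with BSO (1 without mouse av09, av15 or av16), 3 to 4 for no-Cys against no-Trp, 0 to 3 for no-Cys against BSO (3 without mouse av08), 0 to 2 for the interaction, 2 to 5 for BSO against *Cse*+/- no-Trp livers, and 0 to 0 in the other comparisons. The share of all genes called ranged, in the same order, from 18.1% to 23.7%, 0.245% to 1.16%, 4.65% to 12.6%, 0.352% to 6.97% (the highest without mouse av08), 2.37% to 7.80% and 6.13% to 11.4%. Between genotypes on the no-Trp diet the share was 0.742% to 2.87%. Leaving out a *Cse*+/- library of the no-Cys or no-Trp diet gave 1.15% to 2.84% and 0.0136% to 0.0612% against the control diet. Where a control library was left out, the lone sample is assumed to vary like the other groups. The log2 values whose sign turned ranged, for no-Cys against control *Cse*+/- livers, from −0.048 to 0.25 (*Gsta2*), −0.21 to 0.73 (*Gstp1*), −0.33 to 0.25 (*Gstp2*), −0.27 to 0.0082 (*Gstt1*) and −0.089 to 0.054 (*Mgst1*). For no-Trp against control they ranged from −0.78 to 0.16 (*Gstp1*), −0.57 to 0.30 (*Gstp2*), −0.15 to 0.016 (*Gstt2*), −0.38 to 0.031 (*Gstt3*) and −0.092 to 0.051 (*Mgst1*). For the interaction they ranged from −0.078 to 0.44 (*Gsta4*) and −0.17 to 0.44 (*Gstt3*). For no-Cys against BSO they ranged from −0.34 to 0.041 (*Gsta4*), −0.15 to 0.21 (*Gstp1*) and −0.49 to 0.00436 (*Gstt3*), and for no-Cys against no-Trp from −0.43 to 0.18 (*Gstt3*). Between genotypes on the no-Trp diet they ranged from −0.21 to 0.062 (*Gsta3*), −0.0012 to 0.52 (*Gsta4*), −1.26 to 0.21 (*Gstp2*), −0.11 to 0.070 (*Gstt1*) and −0.060 to 0.41 (*Gstt3*). With BSO they ranged from −0.070 to 0.19 (*Gstt2*), −0.15 to 0.32 (*Gstt3*) and −0.091 to 0.18 (*Mgst1*).

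Over all genes, DESeq2 and edgeR called 352 and 117 with BSO, 876 and 406 for no-Cys against BSO, 720 and 389 between genotypes on the no-Trp diet, 613 and 322 for no-Cys against control, 60 and 7 for no-Trp against control, and 1055 and 643 for the interaction. The cause of these differences was not tested. No paired analysis was possible because the columns carry mouse numbers and no replicate number. Raw counts of 4 to 176 for *Gsta1* and 8 to 330 for *Gstp2* limit what can be seen for these genes.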
